A study of Mus musculus with 16 samples.

Results

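Fatty acid desaturases put double bonds into fatty acyl chains, and elongases lengthen them. The levels of 10 such genes were followed in mouse liver: the stearoyl-CoA desaturases Scd1 and Scd2, the polyunsaturated and sphingolipid desaturases Fads1, Fads2 and Fads3, and the elongases Elovl1, Elovl2, Elovl3, Elovl5 and Elovl6. They were taken by gene name from the 22612 genes of the deposited table, and 24 of its 97455 transcripts belong to them. All 10 genes were found, and all 10 passed the filter on low values in each comparison.

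The livers came from male C57BL/6 mice, a standard inbred strain, bought at 7 weeks of age and given 1 week to settle, then 16 weeks of diet in groups of 6. In the ketogenic-alternating group a high-fat diet with 58% of its energy as fat and a ketogenic diet with 90.5% as fat took turns every 2 weeks. In the chow-alternating group the same high-fat diet took turns every 2 weeks with chow, which has 11% of its energy as fat. The high-fat group ate the high-fat diet throughout, and the chow group ate chow throughout. All mice were fasted overnight before the liver was taken, so every level below is that of a fasted liver. Each group has 4 RNA sequencing libraries, 16 in all. The sources used here do not say which diet an alternating mouse ate last. They do not say either whether each library is 1 mouse, and each p-value therefore reflects only the scatter among these libraries, which may be technical.

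Liver is a main site of fatty acid synthesis and remodelling. Scd1 makes the monounsaturated fatty acids palmitoleate and oleate from their saturated precursors, the form in which newly made fat is largely stored and exported. The polyunsaturated branch starts from the essential fatty acids of the diet: Fads2 and Fads1 insert double bonds, and Elovl5 and Elovl2 lengthen the chain between and after these steps, towards arachidonic and docosahexaenoic acid. Both branches are classically under control of the transcription factor SREBP-1c and are held down by dietary polyunsaturated fat, and insulin and carbohydrate raise Scd1.

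Levels are in TPM, a measure of transcripts corrected for length, in which each library sums to 1000000 and different genes can be compared. The sequencing depth behind them is unknown, so no counting error can be given. Each log2 fold change was taken after adding 1 to the TPM, which understates changes of low genes, and adjusted p-values are from limma with Benjamini-Hochberg adjustment over all genes tested. A gene passed at an adjusted p below 0.05. In a whole liver, fewer cells of a type and less RNA per cell cannot be told apart. Of 10 hepatocyte markers, among them Alb, the gene of serum albumin, 10 averaged at least 1 TPM in each group. Between 10575 and 11695 genes reached 1 TPM per library. The 20 highest genes held over 33% of the values in 4 libraries, high-fat replicates 1 and 2 and chow replicates 2 and 3.

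Scd1, the enzyme of monounsaturated fat, was far lower in the ketogenic-alternating livers than in the others, while the 4 genes of the polyunsaturated branch had their highest group means there. Scd1 averaged 28.3 ± 25.8 TPM in ketogenic-alternating livers, 1041.5 ± 363 TPM in chow-alternating livers, 886 ± 193 TPM in high-fat livers and 1894 ± 863 TPM in chow livers (SD, n = 4 each). Fads2 averaged 479.7 ± 99.4 TPM in ketogenic-alternating livers, 191 ± 56.8 TPM in chow-alternating livers, 311 ± 200.5 TPM in high-fat livers and 120.1 ± 59.8 TPM in chow livers (SD, n = 4 each). In a single test for any difference among the 4 diets, 3 of the 10 genes passed, Scd1, Elovl3 and Fads2, and 3.87% of the 11450 genes tested did. Scd1 had the smallest p of all 11450 genes (F = 92.7, adjusted p = 9.49e-07), and the adjusted p was 0.0104 for Elovl3, 0.0336 for Fads2, 0.0514 for Elovl2 and 0.0744 for Fads1.

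**Figure D1:**
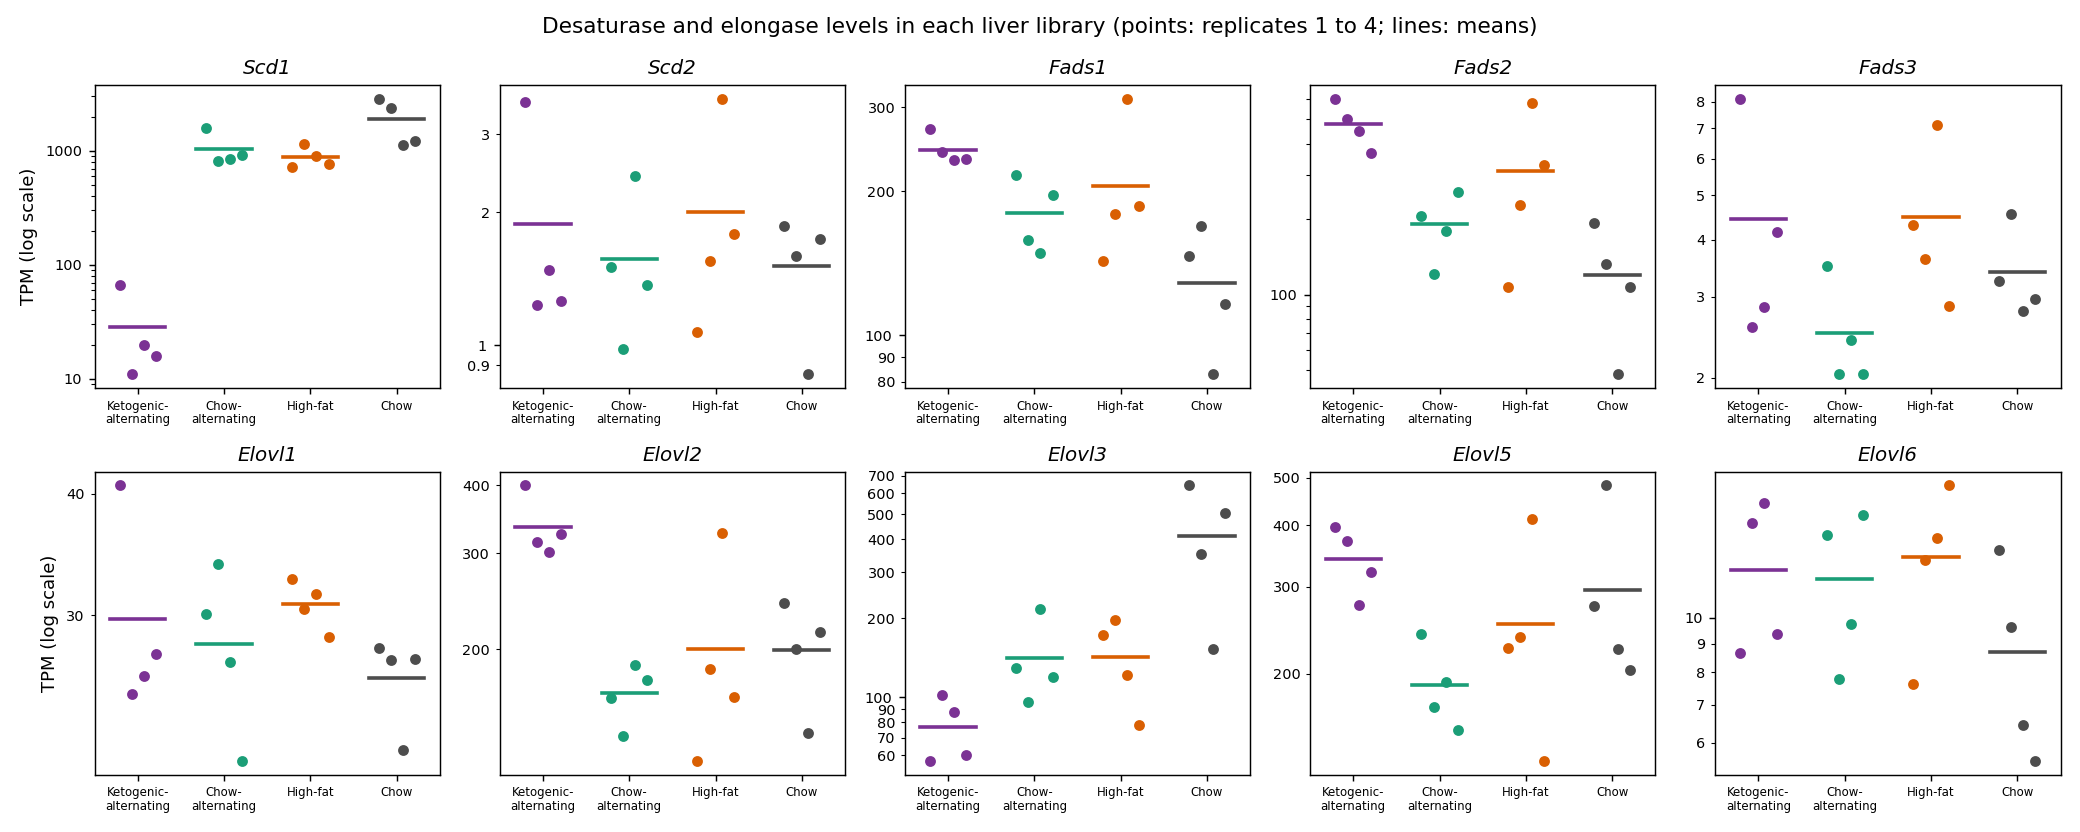
TPM of each of the 10 genes (vertical axes, log scale) in each library, with the 4 diet groups along the horizontal axes. Points are replicates 1 to 4 from left to right and lines are group means. Scd1 lies between 11.0 and 66.7 TPM in the ketogenic-alternating libraries and at or above 716 TPM in all others.

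Scd1 is the desaturase that makes oleate, and it was the most abundant of the 10 genes by median over the 16 libraries, at 880.2 TPM. It stood at 66.7, 11.0, 19.7 and 15.8 TPM in ketogenic-alternating replicates 1 to 4. It stood at 1583, 814, 854 and 916 TPM in chow-alternating replicates 1 to 4, at 716, 1149.6, 907 and 771 TPM in high-fat replicates, and at 2867, 2373, 1123 and 1214 TPM in chow replicates. The ketogenic-alternating libraries lay far below every other library, and the chow-alternating and high-fat libraries overlapped one another. Its group mean was 36.8-fold lower in ketogenic-alternating than in chow-alternating livers, 31.3-fold lower than in high-fat livers and 67.0-fold lower than in chow livers.

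Scd1 was the only one of the 10 genes that passed in ketogenic-alternating against high-fat livers, where 0.0360% of all genes tested (4 of 11108) passed. Its log2 fold change there was -5.24 (SE 0.421, adjusted p = 5.05e-04). It also fell in ketogenic-alternating against chow-alternating livers (log2 fold change -5.44, SE 0.446, adjusted p = 3.27e-04) and against chow livers (-6.24, SE 0.477, adjusted p = 1.35e-04). These 3 comparisons share the ketogenic-alternating libraries and are not independent of one another. Replicate 1 of the ketogenic-alternating group had the highest Scd1 of its group, and without it the log2 fold changes were -5.76 against high-fat livers, -5.96 against chow-alternating livers and -6.76 against chow livers. That library also had the highest summed TPM of recruited macrophage markers in its group, 239 against 36.9 to 46.5 in the other 3 ketogenic-alternating libraries, and of cholangiocyte markers, 205.0 against 35.6 to 48.7. Both lists hold Spp1, osteopontin, which had 157 TPM in that library, and without Spp1 the sums were 82.0 against 8.00 to 11.7 and 47.7 against 7.74 to 10.2. It was also highest for the markers of Kupffer cells, the resident macrophages, at 553.7 against 158.7 to 446.8. For stellate cell markers it was highest too, at 357.7 against 187.0 to 248.0, and for hepatocyte markers lowest, at 90800 against 92350 to 101200. Its sums of sinusoidal endothelial markers, 108.2, and red blood cell markers, 684.2, lay within the range of the other 3. The part of any of these cells in its Scd1 level was not tested.

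Between the diets without ketogenic food Scd1 did not pass. In high-fat against chow livers the log2 fold change was -1.0 (SE 0.302, adjusted p = 0.193), and in chow-alternating against chow livers it was -0.80 (SE 0.309, adjusted p = 0.303). Chow replicates 1 and 2 lay above every other library, and chow replicates 3 and 4 lay within the range of the chow-alternating group. The fit of chow-alternating against high-fat livers gave 0.20 for Scd1, with a 95% interval of -0.29 to 0.69.

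Scd2, the sister isoform best known from brain, was low throughout, between 0.860 and 3.61 TPM over the 16 libraries. Its highest values were 3.55 TPM in ketogenic-alternating replicate 1 and 3.61 TPM in high-fat replicate 3, and all 4 groups overlapped. Scd3 stayed at or below 0.643 TPM and Scd4 at or below 0.0477 TPM, so no other stearoyl-CoA desaturase reached the level that Scd1 had in the ketogenic-alternating libraries. All 4 Scd genes lie on chromosome 19 in the mm10 build, Scd1 on the minus strand at chr19:44394455-44407879. Of all 50-base stretches in annotated Scd1 transcripts, 4.66% also occur in another Scd gene, and reads from those stretches could be split between them.

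Fads2 inserts the first double bond of the polyunsaturated branch. It stood at 603, 501, 448 and 366 TPM in ketogenic-alternating replicates 1 to 4, against 206, 121, 179 and 257 TPM in chow-alternating replicates. It stood at 107, 227, 579 and 329.9 TPM in high-fat replicates 1 to 4, against 193, 132, 48.2 and 107 TPM in chow replicates. All 4 ketogenic-alternating libraries lay above all 8 chow-alternating and chow libraries, whereas the high-fat group was spread so widely that its replicate 3 lay within the ketogenic-alternating range and its replicate 1 within the chow range.

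Fads2 rose in ketogenic-alternating against chow-alternating livers (log2 fold change 1.35, SE 0.216, adjusted p = 0.00914), with a group mean 2.51-fold higher. It rose in ketogenic-alternating against chow livers as well (2.13, SE 0.339, adjusted p = 0.00534), with a group mean 3.99-fold higher. Under a fit of all 16 libraries at once the first of these calls was lost (adjusted p = 0.161). In high-fat against chow livers Fads2 had a log2 fold change of 1.28 that did not pass (SE 0.494, adjusted p = 0.327), and without high-fat replicate 3 it was 0.90 (adjusted p = 0.522). Against high-fat livers its level in ketogenic-alternating livers was 0.85 higher in the log2 fit, with a 95% interval of -0.02 to 1.72.

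Fads1 inserts the later double bond that yields arachidonic acid. It stood at 270.5, 242, 233 and 233 TPM in ketogenic-alternating replicates 1 to 4, against 217, 158, 148 and 197 TPM in chow-alternating replicates. It stood at 143, 179, 313 and 186 TPM in high-fat replicates, against 146, 169.5, 83.0 and 117 TPM in chow replicates. The ketogenic-alternating libraries agreed closely, with a coefficient of variation of 7.22%, and lay above every chow-alternating and chow library. Fads1 rose in ketogenic-alternating against chow livers (log2 fold change 0.97, SE 0.197, adjusted p = 0.0175). The adjusted p rose to 0.0549 to 0.0632 without ketogenic-alternating replicate 1, 2 or 3 or chow replicate 4, and was 0.0557 without the filter on low values. Against chow-alternating livers the log2 fold change of 0.46 did not pass (SE 0.124, adjusted p = 0.0578). Against high-fat livers the log2 fold change of 0.31 did not pass either (SE 0.210, adjusted p = 0.510). It was 0.66 in high-fat against chow livers (adjusted p = 0.366) and 0.51 in chow-alternating against chow livers (adjusted p = 0.347).

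Fads1 and Fads2 are neighbours on chromosome 19, at chr19:10182888-10196877 and chr19:10062765-10101746 in mm10, and Fads3 lies beside them at chr19:10041569-10060110. The ratio of Fads1 to Fads2 TPM was 0.448 to 0.637 in ketogenic-alternating libraries, 0.764 to 1.31 in chow-alternating libraries, 0.540 to 1.33 in high-fat libraries and 0.760 to 1.72 in chow libraries. The ratio in the ketogenic-alternating libraries lay below that in every chow-alternating and chow library, so Fads2 stood higher relative to Fads1 there. Fads3, which acts on sphingoid bases, was low, between 2.04 and 8.12 TPM. Its 8.12 TPM came from ketogenic-alternating replicate 1, and the other 3 libraries of that group had 2.58 to 4.16 TPM. In chow-alternating against high-fat livers its log2 fold change of -0.61 did not pass (SE 0.237, adjusted p = 1.00).

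Elovl2 lengthens the longer polyunsaturated chains on the way to docosahexaenoic acid. It stood at 399.75, 314, 301 and 326 TPM in ketogenic-alternating replicates 1 to 4, against 163, 138, 187 and 176 TPM in chow-alternating replicates. It stood at 125, 184, 327 and 163 TPM in high-fat replicates, against 243, 200.1, 140.2 and 215 TPM in chow replicates. The ketogenic-alternating libraries lay above all chow-alternating and chow libraries, and high-fat replicate 3 alone of the other 12 libraries reached their range. Elovl2 rose in ketogenic-alternating against chow-alternating livers (log2 fold change 1.01, SE 0.119, adjusted p = 0.00264), and it passed there in all 15 alternative settings. It rose against chow livers as well (0.76, SE 0.175, adjusted p = 0.0294), but 9 of the 16 alternative settings ended that call, with adjusted p up to 0.117. Against high-fat livers its log2 fold change was 0.83 (SE 0.249, adjusted p = 0.486), and 1.1 without high-fat replicate 3 (adjusted p = 0.0457).

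Elovl5 lengthens the shorter polyunsaturated chains and also makes vaccenate from palmitoleate. It stood at 396, 372, 276 and 321 TPM in ketogenic-alternating replicates 1 to 4, against 241, 171, 192 and 154 TPM in chow-alternating replicates. It stood at 226, 238, 412 and 133 TPM in high-fat replicates, against 275, 482, 225 and 203 TPM in chow replicates. All ketogenic-alternating libraries lay above all chow-alternating libraries, but the chow group held the single highest library. Elovl5 rose in ketogenic-alternating against chow-alternating livers (log2 fold change 0.85, SE 0.152, adjusted p = 0.0140). That call was lost without ketogenic-alternating replicate 2 (adjusted p = 0.0519), without chow-alternating replicate 2 (0.0515) and in a fit of all 16 libraries (0.189). In chow-alternating against chow livers its log2 fold change was -0.58 and did not pass (adjusted p = 0.364). In ketogenic-alternating livers Elovl5 did not pass against chow livers (0.28, adjusted p = 0.508) or high-fat livers (0.54, adjusted p = 0.486). After upper-quartile scaling these values were 0.13 and 0.32.

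Elovl2 and Elovl5 passed together in ketogenic-alternating against chow-alternating livers. The 250 bases before their annotated starts are therefore shown, from RefSeq on GRCm38.p6. The Elovl2 window is chr13:41220404-41220653 and is read from the minus strand, and the Elovl5 window is chr9:77917115-77917364 and is read from the plus strand. Capitals mark matches to the motifs searched on both strands, which were TCACNCCAC, the sterol regulatory element that SREBP binds, CCAAT, the box of NF-Y, which acts beside SREBP, CACGTG, the E-box, and AGGTCA, a motif of nuclear receptors.
Elovl2: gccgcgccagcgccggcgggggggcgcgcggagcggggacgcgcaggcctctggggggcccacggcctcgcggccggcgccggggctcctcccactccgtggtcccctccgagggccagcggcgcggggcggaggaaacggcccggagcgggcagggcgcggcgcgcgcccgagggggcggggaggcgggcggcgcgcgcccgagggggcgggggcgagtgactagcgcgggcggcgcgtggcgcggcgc
Elovl5: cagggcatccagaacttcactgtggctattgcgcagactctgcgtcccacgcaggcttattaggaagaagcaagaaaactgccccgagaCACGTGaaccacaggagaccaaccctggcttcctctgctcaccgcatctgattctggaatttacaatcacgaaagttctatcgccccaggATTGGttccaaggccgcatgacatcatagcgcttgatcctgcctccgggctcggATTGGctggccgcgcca
Elovl5 has the NF-Y box on the minus strand, read here as ATTGG, at 13 to 17 and at 67 to 71 bases before the start, and an E-box at 156 to 161 bases, while the Elovl2 window has none of these motifs. Windows were matched for 6 of the 10 genes but not for Scd1, Scd2, Fads1 or Elovl3, which were therefore not searched. Of the 8 windows, 5 end within 50 bases of a GENCODE gene start, 1 each of Elovl1, Elovl2, Elovl5, Elovl6 and Fads3. The other 3, of Fads2 and the second starts of Elovl1 and Elovl2, end 243 bases or more inside the gene, so the Fads2 promoter is not covered, and they are left out of the counts. The sterol regulatory element was in 0 of the 5 windows and in 1.05% of 32851 RefSeq windows of the same length. For so rare a motif, 0 of 5 says nothing particular of these genes. The NF-Y box was in 3 of the 5 and in 33.8% of all windows, the E-box in 1 of the 5 and 6.02% of all, and AGGTCA in 1 of the 5 and 14.0% of all. Unlike the 5, the windows behind these shares were not limited to those ending near a GENCODE gene start. AGGTCA repeated with 1 base between or with 4 between, direct repeat 1 and direct repeat 4, was in 0 of the 5 windows and in 0.0335% and 0.0152% of all windows. The matches describe these letters in these windows and no binding was measured.

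Elovl3 makes very long saturated and monounsaturated chains. It stood at 57.0, 102, 87.7 and 59.8 TPM in ketogenic-alternating replicates 1 to 4, against 129, 95.9, 217 and 119 TPM in chow-alternating replicates. It stood at 173, 198, 121 and 78.4 TPM in high-fat replicates, against 643, 351, 153 and 503 TPM in chow replicates. Chow livers were highest and ketogenic-alternating livers lowest, without overlap between these groups, and the chow-alternating and high-fat groups had means between them and overlapped with both and with each other. Elovl3 fell in ketogenic-alternating against chow livers (log2 fold change -2.27, SE 0.375, adjusted p = 0.00650), with a group mean 5.38-fold lower. Its log2 fold change of -1.43 in high-fat against chow livers did not pass (SE 0.412, adjusted p = 0.178), nor did the -1.43 in chow-alternating against chow livers (SE 0.385, adjusted p = 0.126). Both depended on the setting. Without chow replicate 3, the lowest chow library, which also had the largest mitochondrial share of all 16 at 18.4% of its TPM, they were -1.84 (adjusted p = 0.0379) for high-fat and -1.85 (adjusted p = 0.0160) for chow-alternating livers. The first also passed in a fit of all 16 libraries (adjusted p = 0.0486). Elovl3 had -0.84 in ketogenic-alternating against chow-alternating livers (adjusted p = 0.0733) and -0.84 against high-fat livers (adjusted p = 0.486).

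Elovl1 and Elovl6 did not pass in any comparison. Elovl6, which extends palmitate to stearate and so feeds Scd1, averaged 12.2 ± 3.73 TPM in ketogenic-alternating livers, 11.7 ± 3.53 TPM in chow-alternating livers, 12.8 ± 3.98 TPM in high-fat livers and 8.71 ± 3.46 TPM in chow livers (SD, n = 4 each). All 4 groups overlapped. Its log2 difference in ketogenic-alternating against high-fat livers had a 95% interval of -0.63 to 0.51, while that of Scd1 was -6.16 to -4.32. Elovl1, which makes the very long saturated chains of sphingolipids, was the steadiest of the 10, with 21.3 TPM in its lowest library and 40.8 TPM in its highest.

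**Figure D2:**
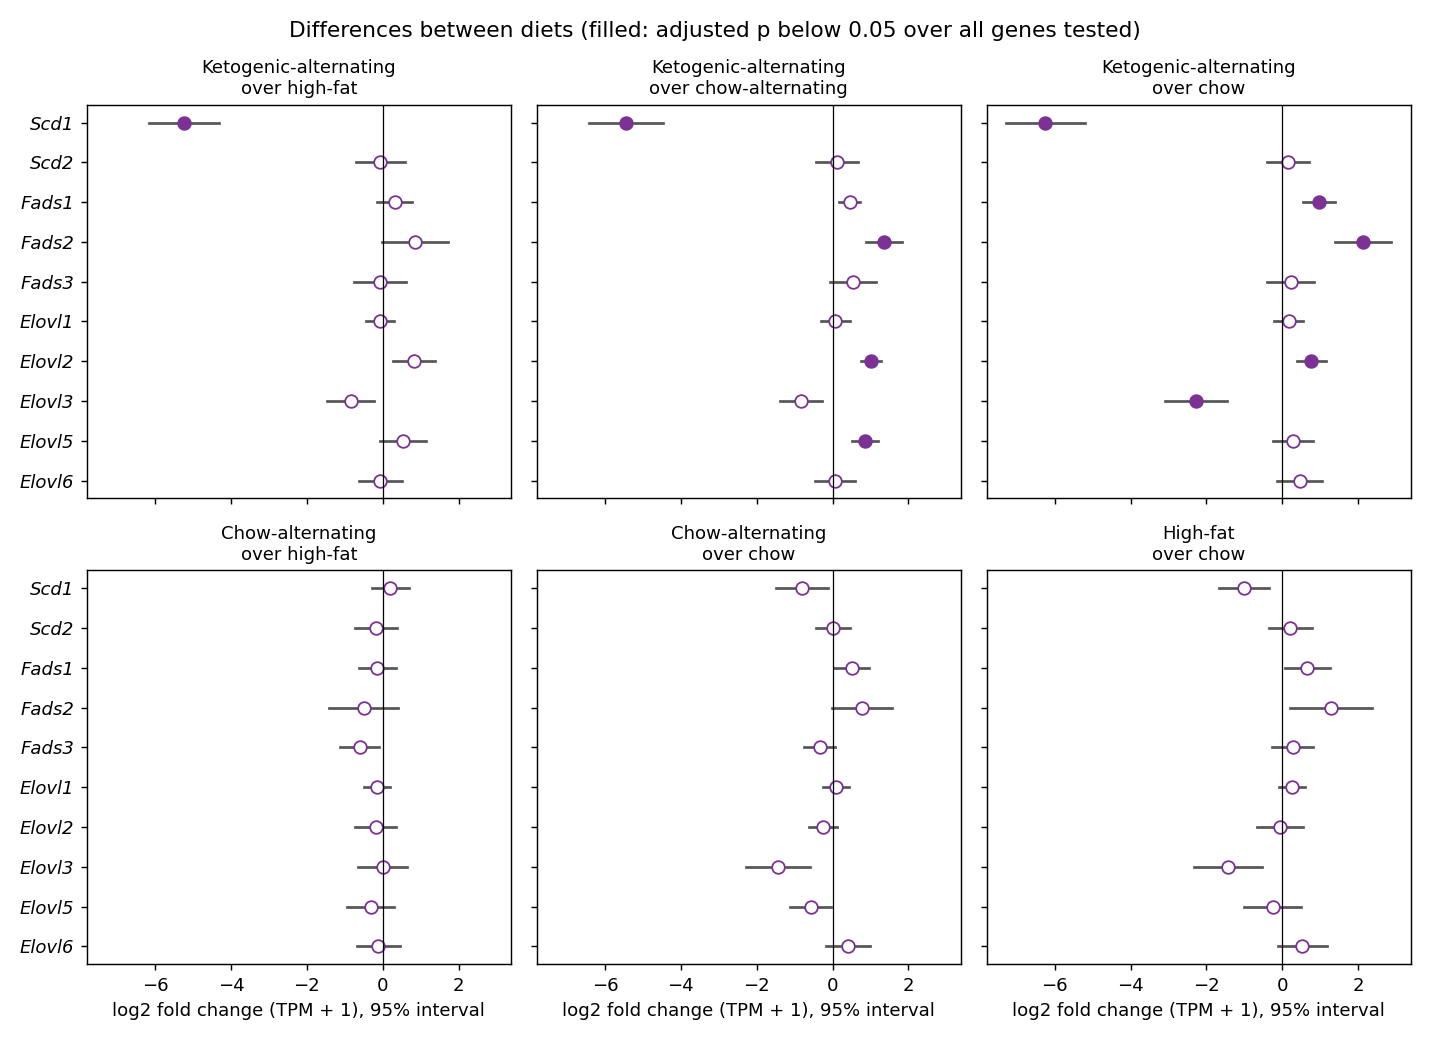
Log2 fold changes (horizontal axes, TPM + 1) of the 10 genes in the 6 comparisons, with 95% intervals as bars and filled points at an adjusted p below 0.05 over all genes tested. Filled points stand in the 3 ketogenic-alternating panels, and Scd1 lies at -5.24, -5.44 and -6.24 in them.

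Most calls among the 10 genes came from setting the ketogenic-alternating livers against those of mice that ate chow. Against chow-alternating livers 4 of the 10 passed, and 5.04% of the 11002 genes tested did. Fads2, Elovl2 and Elovl5 were higher, where 4.31% of all genes were, and Scd1 was lower, where 0.727% of all genes were. Of the 554 genes called there, 85.6% were higher as deposited, 53.4% of 313 after upper-quartile scaling and 56.4% of 280 after quantile normalization. The median of all genes there was 0.19 as deposited, 0.05 after upper-quartile scaling and -0.0032 after quantile normalization. The same number of the 10 genes, 4, passed under both scalings, with log2 fold changes of 1.20 and 1.33 for Fads2, 0.86 and 0.97 for Elovl2, 0.70 and 0.82 for Elovl5, and -5.59 and -5.50 for Scd1.

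Against chow livers 5 of the 10 passed, and 5.0% of the 11091 genes tested did. Fads1, Fads2 and Elovl2 were higher, where 3.67% of all genes were, and Scd1 and Elovl3 were lower, where 1.33% of all genes were. As deposited 73.3% of all genes called were higher, after upper-quartile scaling 57.8% and after quantile normalization 52.7%, and 5 of the 10 genes passed each time. The median log2 fold change of the 10 genes was 0.25 in ketogenic-alternating against chow livers, where that of all genes was 0.15, and 0.29 against chow-alternating livers, where that of all genes was 0.19. Against high-fat livers it was -0.06, and 0.21 over all genes. After upper-quartile scaling the median of all genes was 0.03 against chow livers and 0.02 against high-fat livers.

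In the other 3 comparisons limma passed 0 of the 10. In high-fat against chow livers 1.06% of all genes tested passed. At an unadjusted p below 0.05 there were 4 of the 10, Scd1, Elovl3, Fads2 and Fads1, and 11.6% of all genes. In chow-alternating against chow livers 1.16% of all genes passed, and at an unadjusted p below 0.05 there were 4 of the 10, Elovl3, Scd1, Fads1 and Elovl5, and 12.3% of all genes. In chow-alternating against high-fat livers 0.0459% of all genes passed, and at an unadjusted p below 0.05 there was 1 of the 10, Fads3, and 4.15% of all genes. Any pair of these comparisons shares the libraries of a group, so they are not independent of one another.

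Fads2 and Scd1 changed places in the ketogenic-alternating livers. The ratio of Fads2 to Scd1 TPM was 9.05, 45.5, 22.7 and 23.2 in ketogenic-alternating replicates 1 to 4. It was 0.131 to 0.281 in chow-alternating libraries, 0.150 to 0.638 in high-fat libraries and 0.0429 to 0.0884 in chow libraries. Only the ketogenic-alternating libraries had more Fads2 than Scd1 per length, and the chow libraries, at the other end, did not overlap with any other group.

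**Figure D3:**
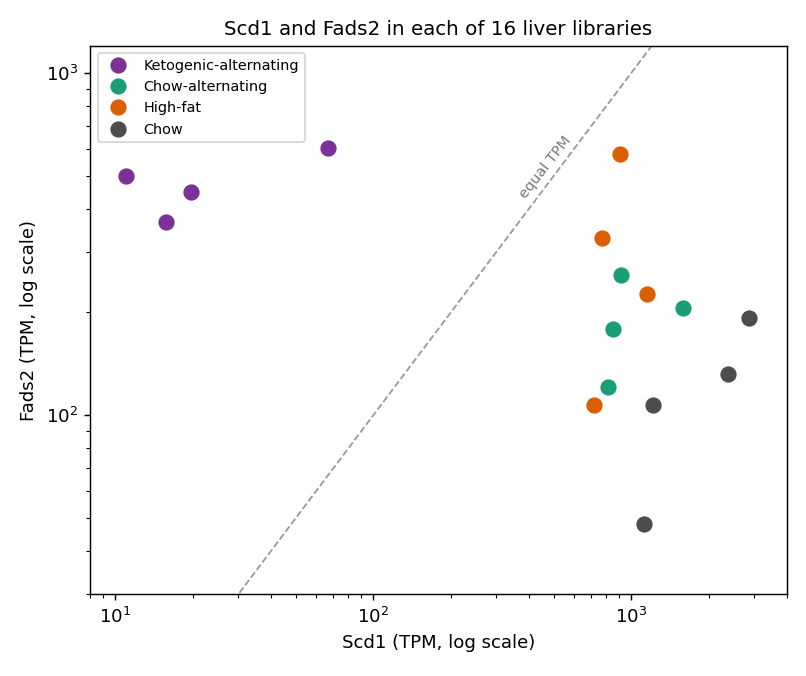
Fads2 TPM (vertical axis, log scale) against Scd1 TPM (horizontal axis, log scale) in each of the 16 libraries, coloured by diet, with a dashed line at equal TPM. The 4 ketogenic-alternating libraries lie above the line, with ratios of 9.05 to 45.5, and the other 12 lie below it.

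The mix of the 10 transcripts differed in the same way. Scd1 was 1.71% ± 1.29 of their summed TPM in ketogenic-alternating livers, 52.5% ± 6.23 in chow-alternating livers, 44.2% ± 7.74 in high-fat livers and 60.3% ± 6.52 in chow livers (SD, n = 4 each). The 4 genes of the polyunsaturated branch, Fads1, Fads2, Elovl2 and Elovl5, together held 90.2% ± 0.928 in ketogenic-alternating livers, 37.8% ± 4.25 in chow-alternating livers, 46.0% ± 10.4 in high-fat livers and 25.0% ± 3.76 in chow livers. The ketogenic-alternating share was nearly constant, from 89.1% to 91.4%. These shares add up to a fixed total, so a lower share of Scd1 leaves a higher one to the rest. The mean summed TPM of the 4 genes was itself highest in the ketogenic-alternating livers, at 1401 ± 198 in ketogenic-alternating livers, 726 ± 104.4 in chow-alternating livers, 968 ± 454 in high-fat livers and 745 ± 217 in chow livers. High-fat replicate 3, at 1631, lay within the ketogenic-alternating range of 1246 to 1670. All 10 genes together summed to 1554 ± 222 TPM in ketogenic-alternating livers, 1952 ± 446.5 in chow-alternating livers, 2047 ± 533 in high-fat livers and 3091 ± 1199.9 in chow livers. The shares and sums are descriptions and were not tested.

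**Figure D4:**
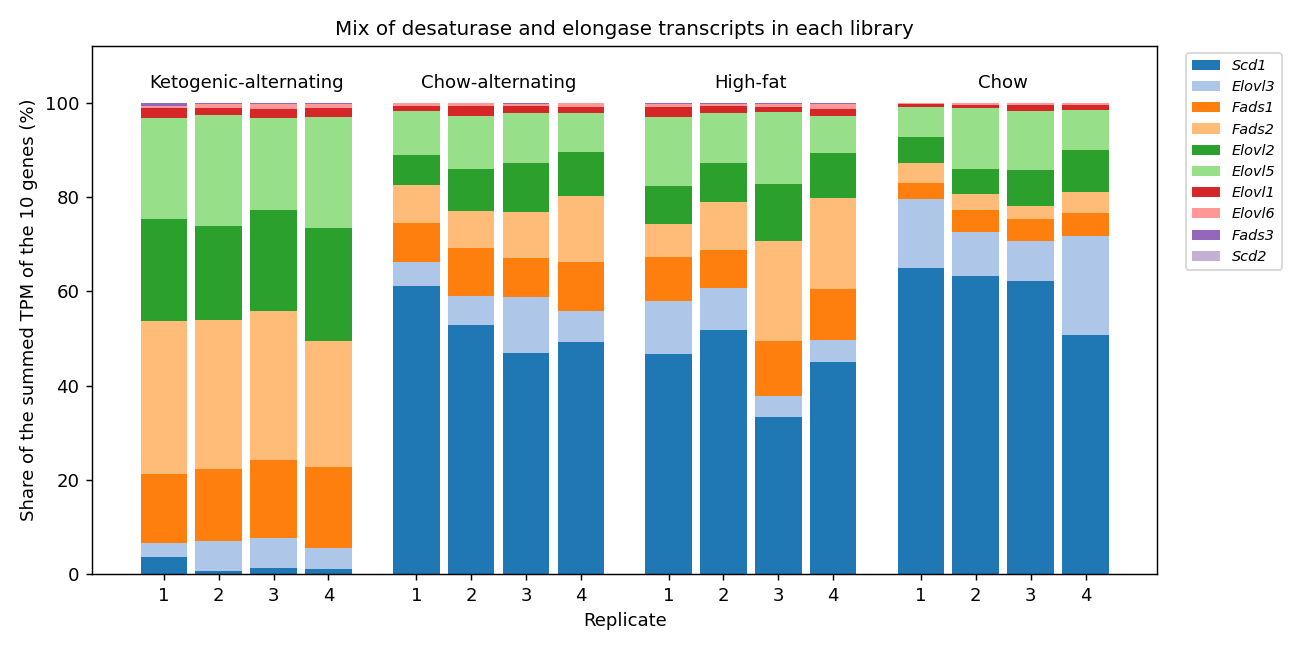
Share of each gene in the summed TPM of the 10 genes (vertical axis, percent) in each library, with replicates along the horizontal axis under their diet. Scd1, at the foot of each bar, fills 33.4% to 65.0% of the bars outside the ketogenic-alternating group and at most 3.59% within it.

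Within a group, the highest or lowest levels of the 10 genes often came from the same library. Ketogenic-alternating replicate 1 had the highest level of its group for 8 of the 10 genes, high-fat replicate 3 for 6 and chow replicate 1 for 7. Chow replicate 3 had the lowest for 8. These counts were not made over all genes, so they show nothing particular to the 10. Ketogenic-alternating replicate 1, high-fat replicate 3 and chow replicate 1 also had the most genes at 1 TPM in their groups, at 11695, 11375 and 11065. Chow replicate 3 had the fewest of its group, 10627. High-fat replicate 3 stood highest in its group for Fads1, Fads2, Elovl2 and Elovl5 but not for Scd1 or Elovl3. Its polyunsaturated-branch share was 60.1%, and the other 3 high-fat libraries had 37.2% to 47.5%.

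**Figure D5:**
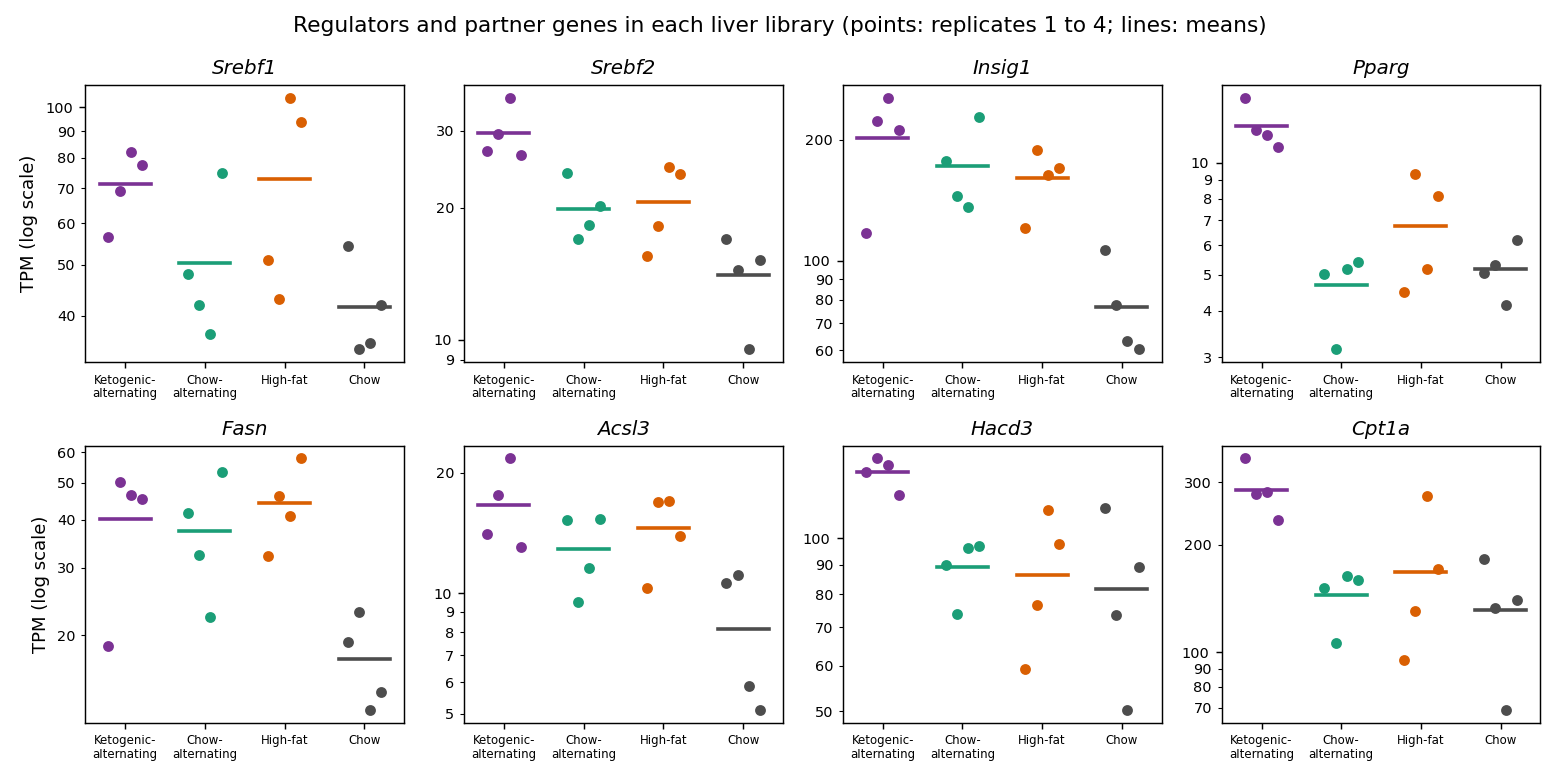
TPM (vertical axes, log scale) of 8 regulator, supplier, partner and user genes in each library, by diet along the horizontal axes, with points for replicates 1 to 4 and lines for means. Pparg lies between 11.0 and 14.97 TPM in the ketogenic-alternating libraries and at or below 9.31 TPM in all others.

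The genes around the desaturases and elongases were read from 5 lists with 58 genes, of which 51 were tested. In ketogenic-alternating against chow-alternating livers 7 of the 51 were higher and 1 lower, where 4.31% and 0.727% of all genes were, in ketogenic-alternating against chow livers again 7 higher and 1 lower, where 3.67% and 1.33% of all genes were. In high-fat against chow livers 2 were higher and in chow-alternating against chow livers 1 was, where 1.06% and 1.16% of all genes passed in either direction. None of the 51 passed in limma in ketogenic-alternating or chow-alternating against high-fat livers, where 12 and 1 had an unadjusted p below 0.05, as did 10.05% and 4.15% of all genes. Many of these calls depended on the setting, so the number of alternative settings in which a gene passed is given with it.

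Among 12 regulators, Pparg, a nuclear receptor that drives fat storage genes, had 14.97, 12.3, 11.9 and 11.0 TPM in ketogenic-alternating replicates 1 to 4. It had 3.15 to 5.41 TPM in chow-alternating, 4.49 to 9.31 TPM in high-fat and 4.14 to 6.21 TPM in chow libraries, so that no library of another group reached the ketogenic-alternating range. It rose against chow-alternating livers (log2 fold change 1.26, adjusted p = 0.00345, 15 of 15 settings) and against chow livers (1.13, adjusted p = 0.00308, 16 of 16 settings). Srebf2, the SREBP of cholesterol synthesis, rose against chow livers (1.05, adjusted p = 0.00965, 16 of 16 settings) and, in 3 of 15 settings, against chow-alternating livers (0.56, adjusted p = 0.0409).

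Srebf1 encodes SREBP-1a and SREBP-1c, which gene-level values do not separate and whose activity was not measured. It stood at 56.6, 69.3, 82.1 and 77.7 TPM in ketogenic-alternating replicates 1 to 4, 36.8 to 74.9 TPM in chow-alternating libraries, 43.1 to 104.3 TPM in high-fat libraries and 34.5 to 54.4 TPM in chow libraries. It rose against chow livers (log2 fold change 0.78, adjusted p = 0.0282), which held in 6 of 16 settings. Insig1, an SREBP target that retains SREBP in the endoplasmic reticulum, averaged 201 ± 58.8 TPM in ketogenic-alternating livers, 172 ± 41.5 in chow-alternating livers, 161 ± 28.6 in high-fat livers and 76.9 ± 20.96 in chow livers (SD, n = 4 each). It passed in each of these groups against chow livers, with log2 fold changes of 1.36 for ketogenic-alternating (adjusted p = 0.0105, 15 of 16 settings), 1.15 for chow-alternating (adjusted p = 0.0253, 8 of 16) and 1.07 for high-fat livers (adjusted p = 0.0402, 6 of 16). Rxra, the partner of many nuclear receptors, passed against chow-alternating livers (0.63, adjusted p = 0.0435) in 3 of 15 settings and in neither scaling.

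Of 12 suppliers of acyl chains and NADPH, 1 was higher in each of 2 comparisons. Fasn, which makes palmitate, had 32.2 to 57.8 TPM in high-fat libraries and 12.8 to 23.0 TPM in chow libraries (log2 fold change 1.31, adjusted p = 0.0215, 9 of 16 settings). In ketogenic-alternating replicates 1 to 4 Fasn stood at 18.7, 50.3, 46.5 and 45.2 TPM. Replicate 1, the lowest of these, was the library with the most Scd1 in its group, and the other 3 lay within the high-fat range. Mid1ip1, an activator of acetyl-CoA carboxylase, rose in ketogenic-alternating against chow livers (0.86, adjusted p = 0.0166, 11 of 16 settings).

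Of 15 partner enzymes of elongation and desaturation, 13 were tested. In ketogenic-alternating against chow-alternating livers Hacd3, a dehydratase of the elongation cycle, was higher (log2 fold change 0.55, adjusted p = 0.0172), which neither scaling kept (adjusted p = 0.0698 and 0.0508). Cyb5r3, a reductase that feeds electrons to the desaturases through cytochrome b5, was lower there (-0.57, adjusted p = 0.0210, 11 of 15 settings). Against chow livers Acsl3, which activates fatty acids, was higher (0.98, adjusted p = 0.0481, 4 of 16 settings) and Hacd2, another dehydratase, was lower (-0.50, adjusted p = 0.0477, 6 of 16). The most abundant partner, Cyb5a, which is cytochrome b5, averaged 1207 ± 148 TPM in ketogenic-alternating and 1116 ± 231 TPM in chow livers. The other family members were Fads6, at 17.4 to 87.9 TPM, Degs1, at 28.6 to 64.5 TPM, and Scd3, Scd4, Degs2, Elovl4 and Elovl7, each with a median below 1 TPM. Only Fads6 and Degs1 were tested, and limma passed neither in any of the 6 comparisons. Fads6 came nearest in ketogenic-alternating against chow livers (log2 fold change 1.01, adjusted p = 0.0820).

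Of 12 users of the products, Cpt1a, the gate of mitochondrial fatty acid oxidation, had 349.9, 278, 281 and 235 TPM in ketogenic-alternating replicates 1 to 4, against 152, 106, 163 and 159 TPM in chow-alternating replicates. It rose against chow-alternating livers (log2 fold change 0.98, adjusted p = 0.00914, 14 of 15 settings) and against chow livers (1.19, adjusted p = 0.0228, 10 of 16). Hsd17b4, of peroxisomal oxidation, rose against chow-alternating livers (0.68, adjusted p = 0.0120, 13 of 15), and Lpcat3, which puts polyunsaturated chains into phospholipids, passed there in 5 of 15 settings and in neither scaling (0.46, adjusted p = 0.0278).

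Levels of some markers of other cells differed between the diets too. Of 7 adipocyte markers, Cidec, a lipid droplet gene that fatty liver also expresses, and Cfd were higher in ketogenic-alternating livers, with Cidec at 21.3 to 70.9 TPM there, 1.80 to 3.26 TPM in chow-alternating livers, 3.64 to 12.9 TPM in high-fat livers and 0.857 to 5.45 TPM in chow livers. Cidec passed in limma against chow-alternating livers (log2 fold change 3.44, adjusted p = 3.70e-04, 15 of 15 settings) and chow livers (3.03, adjusted p = 0.00253, 16 of 16). Cfd passed against chow-alternating livers (4.10, adjusted p = 3.58e-04, 15 of 15 settings) and chow livers (4.27, adjusted p = 1.35e-04, 12 of 12). It also passed against high-fat livers (3.21, adjusted p = 0.00880), but in 12 of 16 settings only, with adjusted p up to 0.283. The defining markers were absent or nearly so: Lep was listed at 0 in every library, Plin1 was at most 0.0548 TPM, Adipoq was at most 0.0923 TPM in a ketogenic-alternating library and 0.921 TPM in a high-fat one, and Retn was listed at 0 in all 4 of them. Car3, which liver also expresses, made up nearly all of the summed adipocyte list and passed in no comparison, with 943 to 2486 TPM in ketogenic-alternating livers, 1255 to 2095 in chow-alternating livers, 1208 to 2728 in high-fat livers and 650.0 to 1143 in chow livers. With Car3 the list summed to 1027 to 2549 TPM in ketogenic-alternating livers, 1257 to 2099 in chow-alternating livers, 1222 to 2733 in high-fat livers and 654 to 1144 in chow livers. Without Car3 it summed to 52.1 to 83.8 TPM in ketogenic-alternating livers, 1.91 to 3.49 in chow-alternating livers, 5.2 to 13.7 in high-fat livers and 1.29 to 5.89 in chow livers. Of 6 sinusoidal endothelial markers 2 were higher in ketogenic-alternating against chow-alternating livers, where 4.31% of all genes were. They were Oit3 (log2 fold change 0.81, adjusted p = 0.0106) and Clec4g (0.69, adjusted p = 0.0418), and these 2 calls were not put through the other settings. The list summed to 105 to 152.5 TPM in ketogenic-alternating livers, 60.1 to 88.2 TPM in chow-alternating livers, 75.7 to 114 TPM in high-fat livers and 68.6 to 124 TPM in chow livers. The 8 Kupffer cell markers, of the resident macrophages, had a median log2 fold change of 0.77 in ketogenic-alternating against chow-alternating livers and 0.84 against chow livers. All 8 values were above 0 in both comparisons, and 0 of the 8 passed in limma. Of all genes, 29.0% and 22.2% had an unadjusted limma p below 0.05 there, as did 4 of the 8 Kupffer cell markers in each. Their sums overlapped, at 159 to 554 TPM in ketogenic-alternating livers, 178 to 239.9 TPM in chow-alternating livers, 207 to 395 TPM in high-fat livers and 148 to 363 TPM in chow livers. The 5 red blood cell markers had a median of -0.86 in ketogenic-alternating against chow-alternating livers, where 0 passed and 3 had an unadjusted p below 0.05, and of -0.03 against chow livers. Of 7 stellate cell markers 5 were above 0 in each of these comparisons, 0 passed and 3 had an unadjusted limma p below 0.05. The shares of all genes at that p are those given with the Kupffer cell markers. The hepatocyte list summed to 90801 to 101150 TPM in ketogenic-alternating livers and 109730 to 118590 TPM in chow-alternating livers, without overlap, but to 90921 to 124700 TPM in high-fat livers and 96124 to 106060 TPM in chow livers, both overlapping the ketogenic-alternating range. Alb is most of that sum in the ketogenic-alternating and chow-alternating groups. Without Alb these groups overlapped, at 37800 to 47290 TPM in ketogenic-alternating and 43230 to 46290 TPM in chow-alternating livers. Alb had 53758 ± 753 TPM in ketogenic-alternating livers and 67536 ± 3423 TPM in chow-alternating livers, and Hnf4a had 226 ± 20.6 TPM in ketogenic-alternating livers and 223 ± 36.5 TPM in chow-alternating livers (SD, n = 4 each). Alb did not pass in limma between these groups (adjusted p = 0.0975). Of the 10 markers 1 passed there, Serpina1c, which was lower (log2 fold change -0.51, adjusted p = 0.0213), where 0.727% of all genes were. In ketogenic-alternating against chow livers Apoa1 and Cyp2e1 passed higher and Tat and Ttr lower, where 3.67% and 1.33% of all genes were. The part of these shifts in the desaturase and elongase levels was not tested.

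The genes most like each gene that passed were sought among 10698 others by the root mean square difference of centred log2 levels over the 16 libraries, with no test. Nearest to Scd1 were Hamp2, a hepcidin gene, at 1.21, and the cytochrome P450 genes Cyp2c70 at 1.81 and Cyp2b10 at 1.87, none of them close to its pattern, whose own spread was 2.54. Hamp2 averaged 5.72 TPM in ketogenic-alternating livers, 68.7 in chow-alternating livers, 51.7 in high-fat livers and 209.5 in chow livers. Nearest to Fads2 was Gpcpd1 at 0.352, with Acad12 and Abhd2 next, against a spread of 0.988. Fads1 had Hspd1 at 0.172, Mob3a and Fam114a1, and Elovl2 had Srxn1 at 0.164, Ldha and Kifap3. Elovl3 had G6pc at 0.517, a gene of glucose release, Pitx3 and Cry1, and Elovl5 had Bbs5 at 0.256, Zfp229 and Ccdc66.

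The transcript values gave fewer calls than the gene values. They sum to the gene values, so they are not separate evidence. Scd1, Scd2, Fads1, Fads2, Fads3 and Elovl3 have 1 transcript each, Elovl2 has 2, Elovl5 has 4, Elovl6 has 5 and Elovl1 has 7. Of these 24 transcripts, 1 passed in ketogenic-alternating against high-fat livers, that of Scd1, where 0.0162% of all transcripts did. Against chow-alternating livers 2 passed, of Scd1 and the longer one of Elovl2, where 0.461% of all did. Against chow livers 3 passed, of Scd1, Fads2 and Elovl3, where 1.1% of all did. The main Elovl2 transcript of 3840 bases held 94.1% of the gene in ketogenic-alternating livers and 97.3% in chow livers, and 1 Elovl5 transcript of 2782 bases held 99.8% in both.

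The isoform mix could be tested for 5 transcripts of Elovl1 and Elovl6, and 0 of them passed. The tests numbered 27 over the 6 comparisons and 1 had an unadjusted p below 0.05. The share of all transcripts that passed was 0.00548% for high-fat against chow, 0.0114% for chow-alternating against high-fat, 0.0111% for ketogenic-alternating against high-fat, 0.00579% for ketogenic-alternating against chow-alternating, and 0% both for chow-alternating and for ketogenic-alternating against chow livers. The main Elovl1 transcript, of 1811 bases and 8 exons, held 81.3% of the gene in ketogenic-alternating livers, 78.5% in chow-alternating livers, 62.6% in high-fat livers and 91.5% in chow livers. In high-fat livers it ran from 43.7% to 85.2% and in chow livers from 89.7% to 93.6%, a difference of -28.9 points that did not pass (SE 8.20, adjusted p = 0.949).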

How the data were processed

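RNA was sequenced in 16 mouse liver libraries, 4 per diet. The deposited values are TPM: each library sums to 1000000, although the series' design text names FPKM. Per that text the authors aligned reads to mm10 with HISAT2 and used RSEM 1.1.17 with Ensembl release 96 annotation, and edgeR 3.14.0 for their own comparisons. TPM keeps no depth, so the number of reads behind a value is unknown. Groups and replicate numbers come from the sample titles, and 0 columns of the tables were left unused.

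Each pair of groups was fitted with limma 3.58.1 in R 4.3.3, with an intensity trend, on log2(TPM + 1), over the whole table. Genes entered that reached 1 TPM in 4 or more libraries of the fit. No fold limit was set, and the threshold was 0.05 after Benjamini-Hochberg adjustment. The design had foreseen FPKM or TPM, and TPM was used. Transcripts were fitted in the same way, and transcript shares with a mean of 5% to 95%. Fits were first tested on simulated data. Other settings were a pseudocount of 0.1, no filter, 1 fit of all libraries, upper-quartile or quantile scaling, no trend, a fold limit of 2, the replicate number as a block, and libraries left out. The settings for genes outside the 10 were added after their tests were seen.

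The 10 genes, the lists around them and the markers were chosen with earlier results of these data known. All 10 are named. From each list of related genes at most the 4 with the smallest adjusted p among those that passed are named, else the most abundant, and for each of the 10 that passed the 3 nearest genes. Cell type markers are named where they moved with a result, and Fads6, Degs1 and the low family members were named after their values were seen.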

Additional observations from a re-analysis of the deposited data

Results flagged for a closer look

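In 40 groups of 4 libraries, 1 per gene and diet, the highest or lowest library was set against the others, and 5 stood so far apart that the gap exceeded Dixon's critical value as a share of the group's range. Chance flags about 1 in 20 such groups. Scd1 had 66.7 TPM in ketogenic-alternating replicate 1, with 11.0 to 19.7 TPM in the other 3 libraries, and 1583 TPM in chow-alternating replicate 1, with 814 to 916 TPM in the others. Scd2 had 3.55 TPM in ketogenic-alternating replicate 1, with 1.24 to 1.48 TPM in the others. Elovl1 had 40.8 TPM in ketogenic-alternating replicate 1, with 24.9 to 27.4 TPM in the others, and 21.8 TPM in chow replicate 3, its lowest, with 27.0 to 27.8 TPM in the others. Ketogenic-alternating replicate 1 thus accounts for 3 of the 5, and it also has the most genes at 1 TPM, 11695, of all 16 libraries.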

How the results depend on the processing

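Over 23 fold changes of single genes that passed somewhere or had an unadjusted p below 0.05, 362 alternative values kept their direction, with 336 on the same side of the threshold, 18 no longer past it and 8 newly past it. Scd1 passed in all 3 ketogenic-alternating comparisons under every alternative, with adjusted p up to 0.0466. Of 37 other fold changes of the 10 genes, 18 changed sign somewhere, none above 0.259 in size.

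Counts of genes that passed moved as follows. In high-fat against chow livers the 0 became 1, Elovl3, in a fit of all 16 libraries and without libraries over 33% in their 20 highest genes, and 0 to 1 with 1 library left out. In chow-alternating against chow livers it became 1, again Elovl3, without libraries over 33%, and 0 to 1 with 1 library left out. In ketogenic-alternating against high-fat livers the count was 1 to 2 with 1 library left out, and against chow-alternating livers the 4 became 2 in a fit of all 16 libraries and 3 to 5 with 1 library left out. Against chow livers the 5 became 3 without a filter, 3 with a fold limit of 2, and 3 to 5 with 1 library left out, and the transcript count of 3 became 1 with a pseudocount of 0.1. Over all genes, ketogenic-alternating against chow-alternating livers gave 554 calls as deposited, 313 and 280 after upper-quartile and quantile scaling, and 97 in a fit of all 16 libraries. Across the alternatives those calls ran from 86 to 2513. In the other comparisons, ketogenic-alternating against chow gave 555 (181 to 1620), high-fat against chow 116 (19 to 380), chow-alternating against chow 126 (3 to 242), chow-alternating against high-fat 5 (1 to 32) and ketogenic-alternating against high-fat 4 (1 to 22). For 24 results of related and marker genes, 370 alternatives kept the direction and 119 ended the call. The cause of these shifts was not tested.

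The labels do not explain the replicate number. Pairing can be neither shown nor excluded here, because only libraries with the same replicate number were compared. Their deviations correlated between -0.58 and 0.386, and with the replicate number as a block the counts were 0, 0, 1, 4, 0 and 5 in the order high-fat against chow, chow-alternating against high-fat, ketogenic-alternating against high-fat, ketogenic-alternating against chow-alternating, chow-alternating against chow and ketogenic-alternating against chow. For any diet difference the block gave 2 and the fit without it 3. Depth is unknown and limits what can be said of genes near 1 TPM.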
